A study of Drosophila melanogaster with 7 samples.

Results

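The aminoacyl-tRNA synthetases and the translation initiation factors of Drosophila melanogaster were followed in eye imaginal discs with an altered form of sevenless (sev), a receptor tyrosine kinase needed for R7 photoreceptors to form. Members were chosen by name alone, as current gene symbols that end in RS or RS-m for synthetases or start with eIF for initiation factors. Of 79 such symbols, 70 had a probe on the array and 58 had a value on at least 1 array, namely 26 synthetases and 32 initiation factors, out of 5971 genes with a value. A value from every RNA extraction, needed for the test, was present for 48 members (20 synthetases and 28 initiation factors) of 3586 genes. The gene description that the rule also allows was not among the tables used here, so symbols alone decided.

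A synthetase loads 1 amino acid onto its matching tRNA, and the enzymes fall into class I and class II by the fold of their catalytic domain. Separate enzymes, marked -m, serve mitochondria for some amino acids, while for others, such as glycine, lysine and histidine, no -m name was found. All enzymes without the mark were grouped here as cytosolic, so that grouping does not exclude a mitochondrial role. Initiation factors then bring the initiator tRNA, the small ribosomal subunit and the capped mRNA together, find the start codon and join the large subunit. Growing tissues such as imaginal discs depend on both groups for protein synthesis.

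The sevS11 discs carried an activated form of the receptor and the sevd2 discs (strain sevd2;+;+) a loss-of-function allele, as the alleles are known. Both were set against a common pool of w1118;+;+ wild-type RNA. All came from larvae of the third instar, staged with bromophenol blue, kept at 25 °C, in a w1118 background, and no treatment was given. The labels name no promoter for sevS11 and give no sex or number of larvae. RNA of each genotype came from 2 extractions on 2-colour arrays, in which mutant and reference RNA carry different dyes. sevS11 replicates 1 and 2 were extraction 1 with the dyes swapped, and replicate 3 was extraction 2 with no swap. sevd2 replicates 1 and 2 were a swapped pair of extraction 1, and replicates 3 and 4 a swapped pair of extraction 2. The labels call the extractions biological replicates but name no animals behind them, so a p-value here reflects only how far the extractions differed, which may be technical. Values per array are as deposited, and the mean of sevS11 has the dye effect taken out of replicate 3, except for CysRS-m, which has no swapped pair to estimate it from.

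The labels disagree on the tissue of the reference pool: the sample descriptions say wing discs, while the source names, tissue entries and extraction protocol say eye discs. Eye field and retina markers had medians of -0.11 and 0.42 in sevS11 extractions 1 and 2 and of 0.18 and -0.02 in sevd2 extractions 1 and 2, with 13 of 17 listed names having a value. The names without a value included Lz and rough, which repeat lz and ro of the same list. Of the 10 eye markers tested in limma, 1 passed in sevS11, beside 5.77% of all genes. This was ro, higher by 0.51 ± 0.10 on the log2 scale with SE (limma, adjusted p = 0.0484). The lowest, chp, had -0.46 ± 0.11 and did not pass (limma, adjusted p = 0.0734). Of the 10, 7 lay above 0 in sevS11 and 3 below. Wing disc markers, with 8 of 15 having a value, had medians of -0.15 and -0.05 in sevS11 and -0.04 and 0.07 in sevd2. A ratio to a pool shows no level, so which tissue the pool held was not tested. Blood cell markers, all 11 with a value, had medians of 0.36 and 0.04 in sevS11, against -0.90 and -0.55 in sevd2, each over the markers with a value in that extraction. Of the 7 tested in limma, 3 passed as higher in sevS11, beside 2.18% of all genes. These were PPO2 by 1.75 ± 0.12 (limma, adjusted p = 0.00622), PPO1 by 1.13 ± 0.12 (limma, adjusted p = 0.0133) and He by 1.26 ± 0.18 (limma, adjusted p = 0.0264), on the log2 scale with SE. The others did not pass. Col4a1 (0.37 ± 0.10) and ush (0.07 ± 0.10) lay above 0, and SPARC (-0.24 ± 0.12) and NimC1 (-0.25 ± 0.17) below 0. PPO2 had 1.80 and 1.70 in sevS11 extractions 1 and 2, against -1.15 and -0.79 in sevd2 extractions 1 and 2. PPO2 (2.72 ± 0.17, limma, adjusted p = 0.018) and PPO1 (2.10 ± 0.17, limma, adjusted p = 0.0429) were the 2 genes of all those tested that passed in the difference between the genotypes. The part of other cells in the ratios of the synthetases and initiation factors was not tested. In bulk discs, fewer cells of a type and less RNA per cell cannot be told apart.

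Values are log2 ratios, likely of mutant over reference, given as mean ± standard error (SE) of the limma fit over n = 2 extractions per genotype. The direction was taken from sev, which read 1.81, 1.90 and 4.33 on sevS11 replicates 1, 2 and 3. The last is the only array of extraction 2, so the sevS11 extractions differed in sev itself. On the 3 sevd2 arrays with a value, sev lay from -0.46 to -0.17. If the direction were the other way round, every sign below would turn. A gene passed at a Benjamini-Hochberg adjusted p under 0.05 over the 3586 genes. Between 43 and 54 members had a value per array, and the small number of arrays sets the precision. The spread of the reference pool itself does not enter the tests against it.

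In sevS11 discs 1 of the 48 tested members passed, AlaRS, the alanyl-tRNA synthetase, which fell. Of all genes tested, 5.77% passed in sevS11, 3.6% of all genes lower and 2.18% higher. In sevd2 discs no member passed, beside 0.0837% of all genes (0.0279% lower), and none passed in the direct difference between the genotypes, beside 0.0558% of all genes. At an unadjusted p under 0.05 there were 12 members in sevS11 (2 higher, 10 lower), beside 25.3% of all genes (11.2% higher, 14.2% lower). There were 7 in sevd2 (3 higher, 4 lower), beside 9.76% of all genes (4.38% higher, 5.38% lower). There were 12 in the difference (4 higher, 8 lower), beside 12.7% of all genes (5.61% higher, 7.14% lower). The members' share was 25% in sevS11, near that of all genes. It was 14.6% in sevd2 and 25% in the difference, above those of all genes, and whether by more than chance was not tested. None of these members beyond AlaRS passed after adjustment. The counts changed with the samples fitted, for the members and for all genes. On the sevd2 extractions alone, 8 of 52 members (15.4%) passed in sevd2, beside 12.2% of all genes. LeuRS, eIF4G2 and eIF2Bdelta were higher there, and AsnRS, LysRS, eIF2A, eIF2D and eIF3i lower. This share of the members was near that of all genes. With sevS11 replicate 3 left out, only 1 sevS11 extraction remained. The spread of that fit came from sevd2 alone. Its extractions differed by a median of 0.089 over all tested genes, against 0.26 in sevS11. Counts of that fit therefore cannot be set beside those of the main fit.

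Most synthetases had ratios below 0 in sevS11. Of the 20 tested, 18 had a ratio below 0 in sevS11, beside 50.7% of all genes, and 12 did in sevd2, beside 47.4%. Their median log2 ratio was -0.17 in sevS11 (from -0.70 to 0.10) and -0.049 in sevd2 (from -0.31 to 0.42), while the medians of all tested genes were -0.0035 in sevS11 and 0.010 in sevd2. AlaRS aside, no synthetase passed. In the difference sevS11 minus sevd2 the median was -0.22, and 15 of 20 lay below 0, beside 52.2% of all genes. The size of that median moved with the samples: it was -0.0368 among the genes on all 7 arrays, -0.0230 without sevS11 extraction 1, -0.11 without sevd2 replicate 4 and -0.12 without sevS11 replicate 2. The median in sevS11 was -0.0999 without extraction 1.

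**Figure D1:**
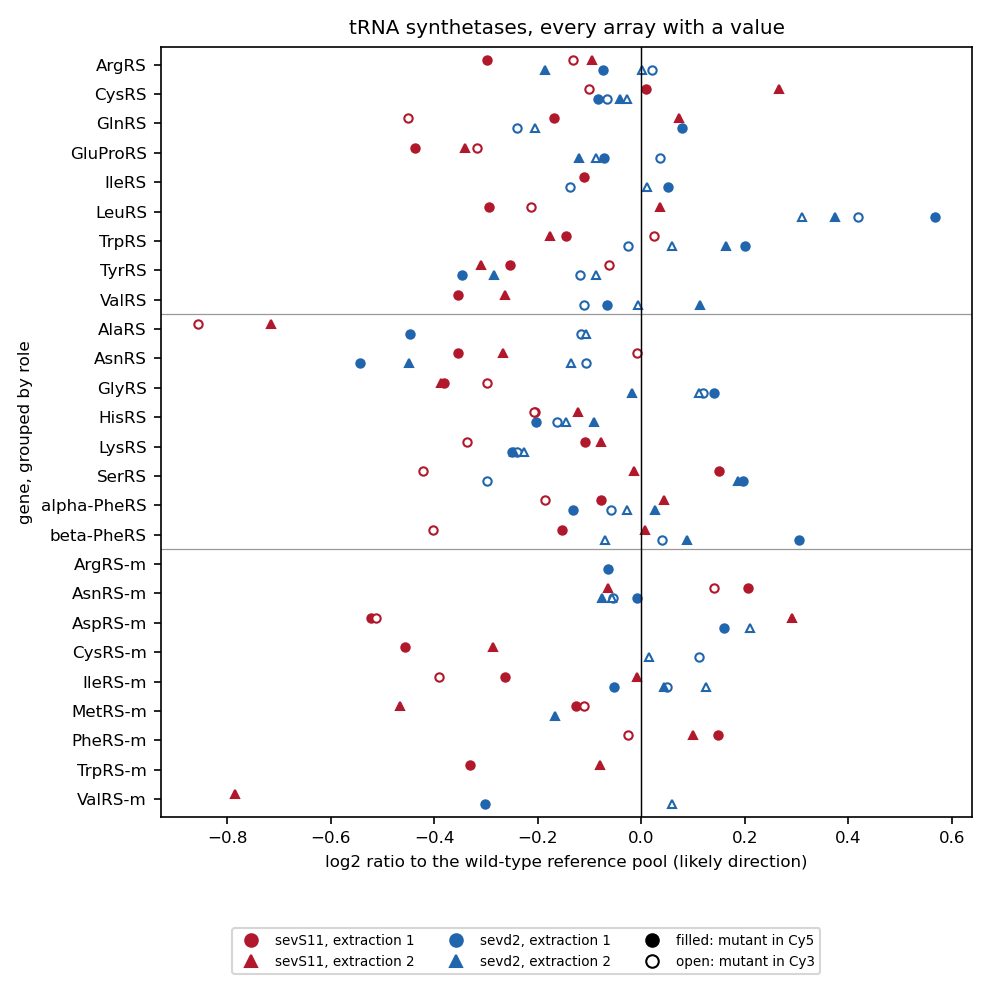
Log2 ratios to the reference pool (horizontal axis) of the synthetases with a value, grouped by class, with 1 point per array: sevS11 red, sevd2 blue, circles extraction 1, triangles extraction 2, filled with the mutant RNA in Cy5, open in Cy3. Most sevS11 points lie left of 0, with AlaRS the furthest left in sevS11, while LeuRS lies right of 0 on all 4 sevd2 arrays.

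Among the 8 tested class II enzymes of the cytosol, every one had a mean ratio below 0 in sevS11 and 5 did in sevd2. AlaRS (CG13391) read -0.86 on sevS11 replicate 2 and -0.72 on replicate 3, with no value on replicate 1, against -0.45, -0.12 and -0.11 on sevd2 replicates 1, 2 and 4, with none on replicate 3. Both sevS11 arrays with a value thus lay below the 3 sevd2 arrays. The dye effect of AlaRS, known from the sevd2 pair alone (-0.17), turned replicate 3 into -0.55. sevS11 replicate 2 and sevd2 replicate 4, each alone in its extraction for AlaRS, were not corrected. The mean was -0.70 ± 0.12 in sevS11 (limma, adjusted p = 0.0344) and -0.19 ± 0.12 in sevd2 (limma, adjusted p = 0.695). The difference of -0.51 ± 0.17 did not pass (limma, adjusted p = 0.302). With such single arrays also corrected, the sevS11 mean was -0.79 (limma, adjusted p = 0.0363). With no dye correction it was also -0.79 (limma, adjusted p = 0.0285). The call ended in the fit without sevS11 replicate 1, an array with no value for AlaRS itself, at an adjusted p of 0.0612 in limma. AlaRS could not be tested without sevS11 replicate 2, without sevd2 replicate 4, or among genes with a value on all 7 arrays.

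GlyRS, the glycyl-tRNA synthetase, read -0.38, -0.30 and -0.39 on the sevS11 arrays, against 0.14, 0.12, -0.02 and 0.11 on the sevd2 arrays. The genotypes did not overlap, with sevS11 the lower. Its difference of -0.44 ± 0.13 did not pass (limma, adjusted p = 0.277), nor did its sevS11 mean of -0.35 ± 0.09 (limma, adjusted p = 0.0951). AsnRS, for asparagine, lay below 0 on all 7 arrays, with -0.35, -0.01 and -0.27 in sevS11, against -0.54, -0.11, -0.45 and -0.14 in sevd2. Its lowest values in either genotype were those of arrays with the mutant RNA in Cy5. The dye effect, the deviation of the Cy5 array from the mean of its swapped pair, was -0.17 in sevS11 and -0.22 and -0.16 in sevd2. LysRS, for lysine, was also below 0 on every array, with means of -0.17 ± 0.09 in sevS11 and -0.24 ± 0.09 in sevd2, as was HisRS, for histidine, with -0.17 ± 0.09 in sevS11 and -0.15 ± 0.09 in sevd2. The subunits of the phenylalanine enzyme, alpha-PheRS and beta-PheRS, had sevS11 means of -0.05 ± 0.10 and -0.19 ± 0.10, and sevd2 means of -0.05 ± 0.10 and 0.09 ± 0.10.

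Of the 8 tested class I enzymes of the cytosol, 7 had a mean ratio below 0 in sevS11 and 6 in sevd2. GluProRS, a single protein that serves both glutamate and proline, was counted here with class I alone. It read -0.44, -0.32 and -0.34 on the sevS11 arrays, against -0.07, 0.04, -0.12 and -0.09 on the sevd2 arrays. The genotypes did not overlap. LeuRS, for leucine, had the difference of largest size among the tested synthetases, with -0.30, -0.21 and 0.04 in sevS11, against 0.57, 0.42, 0.37 and 0.31 in sevd2. Every sevd2 array of LeuRS lay above every sevS11 array. The LeuRS difference was -0.54 ± 0.16 (limma, adjusted p = 0.273), and its sevd2 mean of 0.42 ± 0.11 did not pass either (limma, adjusted p = 0.288). TyrRS, for tyrosine, was below 0 on all 7 arrays, from -0.31 to -0.06 in sevS11 and from -0.35 to -0.09 in sevd2. ValRS, for valine, had -0.35 and -0.26 on the sevS11 replicates 1 and 3, against -0.11 to 0.11 in sevd2. CysRS, for cysteine, was the only tested class I enzyme with a sevS11 mean above 0, at 0.10 ± 0.11, against -0.05 ± 0.11 in sevd2.

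The mitochondrial enzymes were the least measured. Only 9 of the 15 in the name table had a value, and 4 were tested. CysRS-m had -0.46 and -0.29 on sevS11 replicates 1 and 3, against 0.11 and 0.01 on sevd2 replicates 2 and 4, with no value on the other arrays. Its sevS11 mean was -0.37 ± 0.10 (limma, adjusted p = 0.0961) and its difference -0.43 ± 0.14 (limma, adjusted p = 0.302). Both sevS11 values had the mutant RNA in Cy5 and both sevd2 values had it in Cy3, with no dye estimate for this gene, so genotype and dye cannot be told apart in its difference. AspRS-m differed within sevS11, at -0.52 and -0.51 in extraction 1 and 0.29 in extraction 2, against 0.16 and 0.21 in sevd2. AsnRS-m stayed near 0, from -0.07 to 0.21 in sevS11 and from -0.08 to -0.01 in sevd2. In mammals several cytosolic enzymes share a large complex. The 5 of its enzymes that were tested here had a median of -0.17 in sevS11 and -0.061 in sevd2. The 11 other cytosolic enzymes tested had a median of -0.18 in sevS11 and -0.049 in sevd2. This grouping was made with the values known.

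The initiation factors had no common side. Of the 28 tested, none passed in limma in sevS11, in sevd2 or in the difference, and 7 in sevS11, 4 in sevd2 and 8 in the difference had an unadjusted p under 0.05, beside 25.3%, 9.76% and 12.7% of all genes. Their medians were -0.042 in sevS11 (from -0.53 to 0.38) and -0.055 in sevd2 (from -0.36 to 0.39), and 16 lay below 0 in sevS11 and 18 in sevd2. In the difference the median was 0.052, with 15 above 0 and 13 below. Its direction turned with the samples, from -0.0340 without sevS11 extraction 1 to 0.10 without sevS11 replicate 3, and it was 0.0178 without dye correction.

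**Figure D2:**
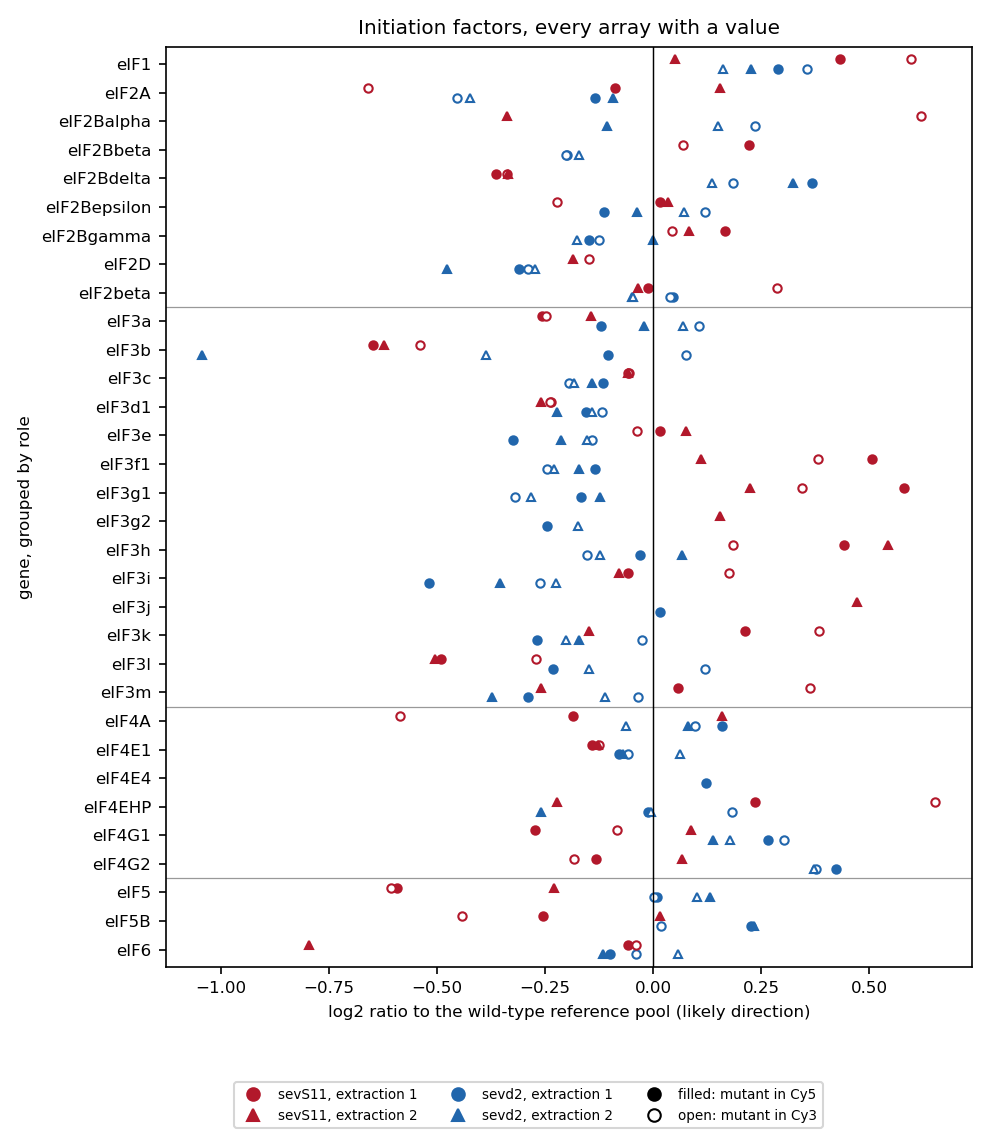
Log2 ratios to the reference pool (horizontal axis) of the initiation factors with a value, grouped by role, with 1 point per array: sevS11 red, sevd2 blue, circles extraction 1, triangles extraction 2, filled with the mutant RNA in Cy5, open in Cy3. eIF3f1, eIF3g1 and eIF3h lie right of 0 in sevS11, eIF2Bdelta lies left of 0 in sevS11 and right of it in sevd2, and eIF3b is split by extraction in sevd2.

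The eIF1 and eIF2 group selects the start codon and delivers the initiator tRNA, and eIF2B recharges eIF2 with GTP. eIF2Bdelta (CG10315), a regulatory subunit of eIF2B, read -0.36, -0.34 and -0.34 on the sevS11 arrays, against 0.37, 0.18, 0.32 and 0.14 on the sevd2 arrays. The genotypes lay on opposite sides of 0. Its sevS11 mean was -0.37 ± 0.09 (limma, adjusted p = 0.0833) and its difference -0.63 ± 0.13, the lowest p of any member in that contrast, did not pass (limma, adjusted p = 0.176). eIF2Bgamma, a subunit of the exchange module, had the opposite order, at 0.17, 0.04 and 0.08 in sevS11, against values from -0.18 to -0.0002 in sevd2. eIF2Bepsilon, the catalytic subunit, had means near 0 in both genotypes, -0.03 ± 0.10 in sevS11 and 0.01 ± 0.10 in sevd2, and eIF2Balpha differed between the sevS11 extractions (0.62 and, corrected for dye, -0.21). eIF2D, which acts in initiation and ribosome recycling, was below 0 on all 6 arrays with a value, with -0.15 and -0.19 in sevS11, against -0.31, -0.29, -0.48 and -0.27 in sevd2. The sevd2 mean of -0.34 ± 0.09 did not pass (limma, adjusted p = 0.306). eIF1, which guards start codon choice, lay above 0 on every array, with means of 0.30 ± 0.13 in sevS11 and 0.26 ± 0.13 in sevd2. eIF2A, an alternative carrier of the initiator tRNA, had -0.09, -0.66 and 0.16 in sevS11, against -0.13, -0.45, -0.09 and -0.42 in sevd2. Its values followed the dye, with a dye effect of 0.29 in the sevS11 pair and 0.16 and 0.17 in the sevd2 pairs.

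eIF3, the largest initiation factor, holds the small subunit and the mRNA. Of its 12 tested subunits, 11 had a mean below 0 in sevd2, with a median of -0.18, and 7 were above 0 in sevS11, with a median of 0.043. The median difference was 0.25, and 4 subunits reached an unadjusted p under 0.05, all higher in sevS11, beside 5.61% of all genes on that side. eIF3g1 (CG8636), an RNA-binding subunit, read 0.58, 0.35 and 0.23 on the sevS11 arrays, against -0.17, -0.32, -0.12 and -0.28 on the sevd2 arrays. eIF3f1 (CG9769), of the core, read 0.51, 0.38 and 0.11 in sevS11, against -0.14, -0.25, -0.17 and -0.23 in sevd2. Both therefore lay above 0 throughout sevS11 and below 0 throughout sevd2, with differences of 0.52 ± 0.16 (limma, adjusted p = 0.286) and 0.45 ± 0.17 (limma, adjusted p = 0.363).

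eIF3h (CG9124), another core subunit, read 0.44, 0.18 and 0.54 in sevS11, against -0.03, -0.15, 0.07 and -0.12 in sevd2. The genotypes did not overlap, but neither its sevS11 mean of 0.38 ± 0.10 (limma, adjusted p = 0.0842) nor its difference of 0.44 ± 0.14 (limma, adjusted p = 0.286) passed. eIF3i (CG8882), a subunit of the b-g-i module, had -0.06, 0.18 and -0.08 in sevS11, against -0.52, -0.26, -0.35 and -0.23 in sevd2, where every array lay below 0. Its sevd2 mean was -0.34 ± 0.09 (limma, adjusted p = 0.306). eIF3l, of the core, had -0.49, -0.27 and -0.50 in sevS11, against -0.23, 0.12 and -0.15 in sevd2, so the subunits did not share a direction. eIF3b, the scaffold of the b-g-i module, had -0.65, -0.54 and -0.62 in sevS11, and in sevd2 it read -0.10 and 0.08 in extraction 1 but -1.04 and -0.39 in extraction 2. Its 2 features gave the same split. eIF3a had -0.26, -0.25 and -0.14 in sevS11, against -0.12, 0.11, -0.02 and 0.07 in sevd2.

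The eIF4 factors recognise the cap. eIF4G2, a scaffold paralogue known for its part in Drosophila spermatogenesis, had -0.13, -0.18 and 0.07 in sevS11, against 0.42, 0.38 and 0.37 on sevd2 replicates 1, 2 and 4. Its sevd2 mean was 0.39 ± 0.10 (limma, adjusted p = 0.274) and its difference -0.44 ± 0.14 (limma, adjusted p = 0.296). eIF4G1, the main scaffold, had -0.27, -0.08 and 0.09 in sevS11, against 0.27, 0.30, 0.14 and 0.18 in sevd2, with no overlap. eIF4E1, the cap-binding protein, had -0.14, -0.12 and -0.13 in sevS11, against -0.08, -0.06, -0.07 and 0.06 in sevd2. The sevS11 values are means of 2 array features that ran apart, at -0.01, -0.03 and -0.19 for feature 1 and -0.27, -0.22 and -0.07 for feature 2. eIF4EHP, a cap-binding repressor, had 0.24, 0.65 and -0.22 in sevS11. Its dye effect was -0.21 in the sevS11 pair and -0.10 and -0.13 in the sevd2 pairs. Its sevS11 extractions were at 0.44 and, corrected for dye, -0.08, so they had opposite signs with the second near 0.

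eIF4A, the helicase that unwinds the mRNA leader, was measured by 17 features. Its mean over features was -0.19 ± 0.08, -0.59 ± 0.05 and 0.16 ± 0.14 on sevS11 replicates 1, 2 and 3, and 0.16 ± 0.09, 0.10 ± 0.04, 0.08 ± 0.07 and -0.06 ± 0.05 on the sevd2 replicates (SD over features). The SD over features was at most 0.14 on any array, while the array means within sevS11 ran from -0.59 to 0.16. Part of that range went with the dye, with a dye effect of 0.20 in the sevS11 pair and 0.03 and 0.07 in the sevd2 pairs. The sevS11 extractions were at -0.39 and, corrected for dye, 0.06. With the arrays of an extraction averaged, its mean was -0.16 ± 0.13 in sevS11 and 0.07 ± 0.13 in sevd2, and it did not pass in either (limma, adjusted p = 0.47 and 0.935).

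**Figure D3:**
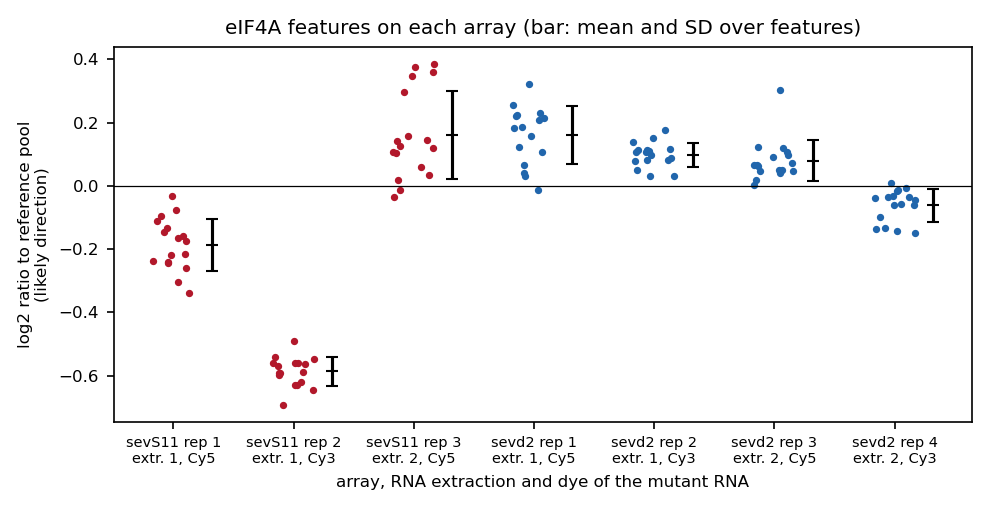
Log2 ratios of the 17 features of eIF4A on each of the 7 arrays (16 on sevd2 replicate 1), with bars for the mean and SD over features. The features of each array cluster together, and sevS11 replicates 2 and 3 lie on opposite sides of 0.

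eIF5, which makes eIF2 hydrolyse its GTP, read -0.59, -0.61 and -0.23 in sevS11, against values from 0.0024 to 0.13 in sevd2. The genotypes did not overlap, with a sevS11 mean of -0.42 ± 0.12 (limma, adjusted p = 0.109) and a difference of -0.48 ± 0.17. eIF5B, which joins the large subunit, had means of -0.22 ± 0.11 in sevS11 and 0.18 ± 0.11 in sevd2. eIF6, which keeps the large subunit apart, had -0.06, -0.04 and -0.80 in sevS11, against values from -0.12 to 0.06 in sevd2. Its sevS11 mean of -0.40 ± 0.17 thus came from replicate 3.

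The other 10 members had a value but lacked one from some extraction, so they were not tested. Among them MetRS-m had -0.13, -0.11 and -0.47 in sevS11, against -0.17 on sevd2 replicate 3, its only sevd2 value. ValRS-m had -0.78 on sevS11 replicate 3, against -0.30 and 0.06 on sevd2 replicates 1 and 4. eIF2Bbeta had 0.22 and 0.07 in sevS11, against -0.20, -0.20 and -0.17 in sevd2, the same order as eIF2Bgamma. The rest were IleRS, measured in sevS11 extraction 1 alone and in sevd2, PheRS-m and TrpRS-m, with values in sevS11 alone, ArgRS-m and eIF4E4, with 1 sevd2 value each, and eIF3g2 and eIF3j, whose only sevS11 values of 0.16 and 0.47 were on replicate 3.

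Across both groups, the genotypes could be compared array by array for 37 members with a value on all 7 arrays. The arrays did not overlap in 3 of 14 synthetases, all with sevS11 the lower, and in 13 of 23 initiation factors, 7 with sevS11 the higher and 6 the lower. Over all genes on 7 arrays the share was 30.1%, 13.3% with sevS11 the higher and 16.9% the lower. The 3 sevS11 arrays were all below 0 for 8 synthetases and 8 initiation factors, beside 28.4% of all genes. The 4 sevd2 arrays were all below 0 for 6 synthetases and 10 initiation factors, beside 22.1%. Only eIF2Bdelta, eIF2Bgamma, eIF3f1, eIF3g1 and eIF5, all initiation factors, had sevS11 and sevd2 arrays on opposite sides of 0 throughout, 5 of 37 members beside 7.08% of all genes. A dye effect over 0.1 in size and of 1 sign in all 3 swapped pairs was seen in 3 members (AsnRS, eIF2A and eIF3m), beside 7.78% of all genes.

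**Figure D4:**
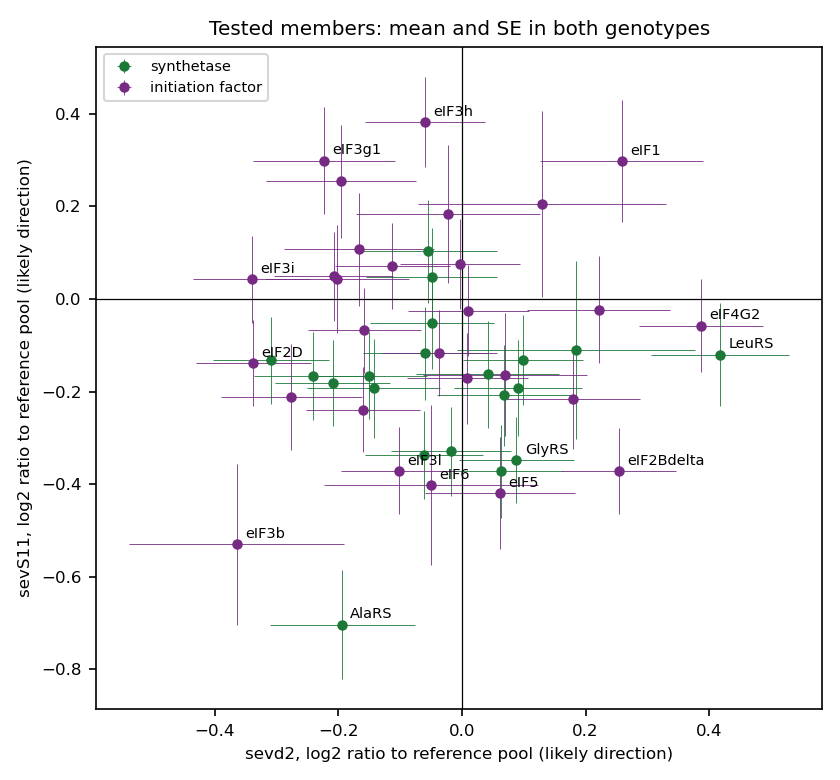
Mean log2 ratio to the reference pool in sevS11 (vertical axis) against sevd2 (horizontal axis) of the 48 tested members, with SE bars from the limma fit. Most synthetases lie below the horizontal zero line, with AlaRS lowest, while the initiation factors spread to both sides.

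The groups were also set side by side by extraction. In sevS11, 19 of 20 synthetases lay below 0 in extraction 1 and 15 in extraction 2, against 14 and 11 in sevd2. Over all tested genes 54.1% and 49.2% lay below 0 in sevS11 extractions 1 and 2, and 48% and 47.6% in sevd2. Of the 28 initiation factors, 17 and 16 lay below 0 in sevS11, against 17 and 18 in sevd2. Median ratios of the synthetases were -0.24 and -0.11 in sevS11, against -0.042 and -0.018 in sevd2. Those of the initiation factors were -0.080 and -0.078 in sevS11 and -0.063 and -0.068 in sevd2. The difference between the 2 groups of genes was not tested, since genes are not replicates of a genotype. The sevS11 extractions were the less alike, with a median absolute difference between them of 0.26 over all tested genes, against 0.089 in sevd2, and the shared spread of the fit averages over both.

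**Figure D5:**
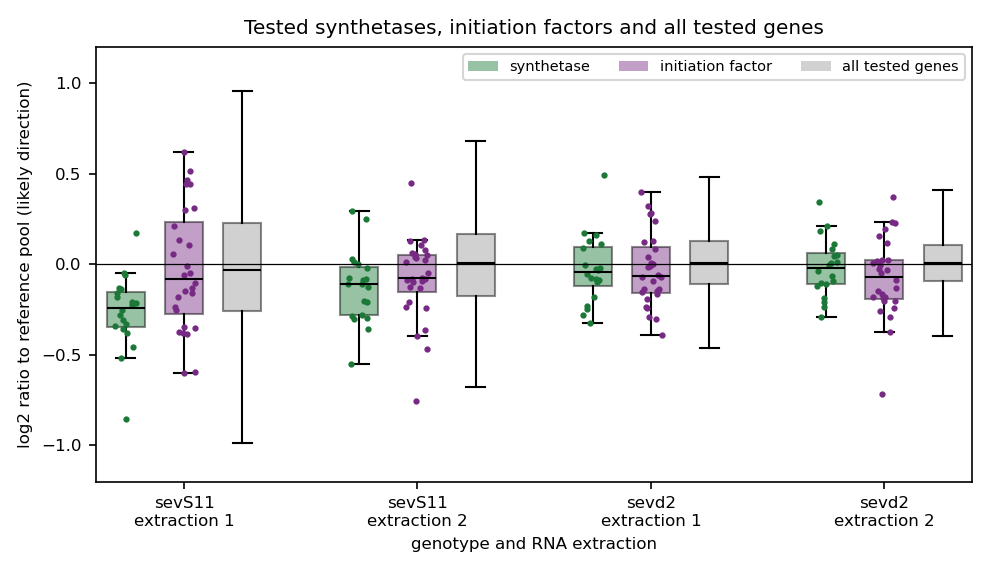
Log2 ratios of the tested synthetases, initiation factors and all tested genes in each extraction of sevS11 and sevd2. Points are synthetases or initiation factors, and boxes give the median and quartiles, with whiskers to the furthest value within 1.5 interquartile ranges. The synthetases sit lowest in sevS11 extraction 1, with a median of -0.24.

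Genes that work with the members were read from lists and counted under the names as listed. No gene of these lists passed limma's test in any of the 3 comparisons. At an unadjusted p under 0.05 in sevS11 there were 3 of 8 tested initiation partners (1 higher, 2 lower) and 2 of 4 tested genes of tRNA handling (1 higher, 1 lower). There was 1 of 3 of the stress response (lower) and 0 of the other lists, beside 25.3% of all genes. In sevd2 there was 1 each of initiation partners (lower), tRNA handling (higher) and elongation factors (higher), beside 9.76%. In the difference there was 1 each of tRNA handling and mitochondrial factors, both higher, beside 12.7%. Of initiation partners and regulators, 8 of 16 names were tested. The name 4EHP found no value, although eIF4EHP is a tested member. MCTS1, a partner in reinitiation, had 0.60 and 0.31 in sevS11 against 0.23 and 0.23 in sevd2 (extraction values), with a sevS11 mean of 0.45 ± 0.11 (limma, adjusted p = 0.0781). The gene bel had -0.55 and -0.15 in sevS11 against 0.06 and 0.08 in sevd2, with a sevS11 mean of -0.35 ± 0.12 (limma, adjusted p = 0.157). pAbp, the poly(A)-binding protein, had -0.63 and -0.30 in sevS11, against -0.31 in sevd2 extraction 1 and a lower value in extraction 2, with a sevd2 mean of -0.65 ± 0.18 (limma, adjusted p = 0.309). In sevd2, eIF3b was likewise lower in extraction 2. Of synthetase partners and tRNA handling, 4 of 17 were tested, and AIMP1, a scaffold of the synthetase complex, had a mean of 0.31 ± 0.09 in sevS11 and -0.06 ± 0.09 in sevd2. Ctu2, a tRNA-modifying enzyme, had -0.42 ± 0.14 in sevS11 and -0.33 ± 0.14 in sevd2. In the integrated stress response list 3 of 8 were tested, and Gcn2, the kinase that senses uncharged tRNA, had -0.76 and -0.18 in sevS11, against -0.14 and 0.09 in sevd2. Of elongation and termination factors 6 of 10 were tested, with sevS11 and sevd2 medians of -0.0027 and 0.019. Of mitochondrial factors 2 of 10 were tested, and mEFTs had a difference of 0.58 ± 0.17 (limma, adjusted p = 0.273). Of growth regulators 3 of 10 were tested, and Max, the partner of Myc, had 0.22 ± 0.09 in sevS11 and 0.08 ± 0.09 in sevd2.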

How the data were processed

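Gene expression was measured in 7 samples on 2-colour arrays, 3 of sevS11 and 4 of sevd2. The authors deposited 1 normalised value per probe and array, read here as log2 ratios. The submitters' processing notes name limma; for log base, direction, background correction, normalisation and filter, the entry is "not given in the sources used here". Of 16416 probes, 8650 had no value on any array, 12533 were named by gene identifier, 120 by accession and 511 by older symbol; 101 with several genes and 3151 not listed stayed unnamed. Probes of a gene were averaged. Arrays of an extraction were averaged, and the mean dye effect over the swapped pairs was subtracted from the unswapped sevS11 array, except for 147 tested genes with no complete pair (1 member, CysRS-m). The 4 extractions were fitted with limma 3.58.1 in R 4.3.3 (lmFit, eBayes; residual degrees of freedom 2, prior 3.8), with Benjamini-Hochberg adjustment over 3586 genes, and the steps were tested on simulated data. Members named in the text were those called, the 5 of each group with the lowest p per test, and the highest and lowest of each role, 31 in all; eIF2Balpha, eIF2Bgamma, eIF2Bepsilon, eIF3f1, eIF3m, eIF4G1, HisRS and the untested members were added after their values were seen. The members and lists were chosen with earlier results of these data known. The labels' shared extraction numbers pair no samples: deviations of same-numbered extractions correlated at -0.065.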

Additional observations from a re-analysis of the deposited data

Results flagged for a closer look

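A single measurement of eIF4E1, the cap-binding protein, stood apart from the rest of its genotype. On sevd2 replicate 4 its log2 ratio was 0.062, against -0.079 to -0.059 on the other sevd2 arrays. Its gap to the nearest array was 0.854 of the whole range, above Dixon's critical value for 4 samples. The check was run on 39 members, and chance flags about 1 in 20 groups. The values checked for eIF4E1 were means of 2 features, or feature 2 alone on replicate 1 (-0.079). Features 1 and 2 read -0.040 and -0.077 on replicate 2, and -0.11 and -0.028 on replicate 3. On replicate 4 they read 0.063 and 0.061. The closeness of the other sevd2 arrays thus held for the means and less so for single features.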

How the results depend on the processing

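The number of members that passed depended on the setting. In sevS11 it was 1 in the main setting, 6 in the array-level fit (12.5% of members, beside 11% of all genes), 0 among genes on all 7 arrays (where AlaRS has no value; 5.84% of all genes), 6 at an adjusted p under 0.1 (12.5%, beside 11.4%), and 0 to 24 (48%, beside 46.9%) with an array or extraction left out. In sevd2 it was 0, with 8 when only its own extractions were fitted (15.4%, beside 12.2%), 4 with arrays scaled (8.33%, beside 4.96%), 4 with quantile normalisation (8.33%, beside 4.63%) and 0 to 9 (18%, beside 14.5%) with an array or extraction left out. The difference had 0, and 0 to 22 (44%, beside 40.7%) with an array or extraction left out. The highest of these counts came with sevS11 replicate 3, and so all of extraction 2, left out, where the lone sevS11 extraction is assumed to vary like sevd2. Without sevS11 replicate 2 the member that passed was eIF3h, not AlaRS. In a paired fit with the replicate block on the extraction number, 0 members passed in the difference, so no member's call changed. Of all genes, 2.37% passed in that fit, beside 0.0558% in the main setting. The synthetase median in sevS11 (-0.17) ran from -0.22 to -0.0999 with arrays or extractions left out. In the difference (-0.22) it was -0.0368 among genes on all 7 arrays, and -0.20 to -0.0230 with arrays or extractions left out. It was -0.176 without dye correction, -0.208 with the sevS11 pair alone, -0.195 centred, -0.174 scaled and -0.16 with quantile normalisation. With single probes it was -0.132, with single arrays of a pair also corrected -0.173, and with 1 extraction sufficing -0.205. The main value was thus the largest in size of all settings. The initiation factor median in sevS11 (-0.0417) was -0.0458 without dye correction, -0.0581 with the dye effect of the sevS11 pair alone, -0.0280 with arrays centred, -0.00516 with arrays scaled, 7.62e-05 with quantile normalisation, -0.0238 both among genes on all 7 arrays and with 1 extraction of each genotype sufficing, and -0.0643 to -0.0261 with arrays or extractions left out. In sevd2 (-0.0549) it was -0.0645 centred, -0.0752 scaled, -0.0878 with quantile normalisation, -0.0599 both among genes on all 7 arrays and with 1 extraction sufficing, and -0.10 to -0.0331 with arrays or extractions left out. In the difference (0.0516) it was 0.0178 without dye correction, 0.0176 with the sevS11 pair alone, 0.0745 centred, 0.0407 scaled, 0.0341 with quantile normalisation, 0.0648 among genes on all 7 arrays, 0.0756 with 1 extraction sufficing, and -0.0340 to 0.10 with arrays or extractions left out. The causes were not tested. With 2 extractions per genotype, members that did not pass may have changed.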
